A study of Homo sapiens with 6 samples.

Results

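Mitochondrial ribosomal protein genes were taken as the autosomal protein-coding genes whose symbol begins with MRPL or MRPS followed by a number. The annotation held 78 of them among 18639 autosomal protein-coding genes, 49 with an MRPL symbol (large subunit) and 29 with an MRPS symbol (small subunit). Each was looked up by its symbol in the N-Myc list, the JMJD6 list and the list of both proteins for promoters, typical enhancers and super-enhancers. The promoters of 36 were bound by N-Myc, and 42 were not listed.

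The lists came from chromatin immunoprecipitation followed by sequencing (ChIP-seq) in CHP-134, a human neuroblastoma cell line. The study describes this line as MYCN amplified, so shares bound by N-Myc may differ in cells without the amplification. Of the 6 samples, 3 were precipitated with an antibody against N-Myc, the transcription factor encoded by MYCN, and 3 with an antibody against JMJD6, a jumonji domain protein described as an arginine demethylase. All 6 were of the same line with no further treatment in their labels. N-Myc samples were fixed with formaldehyde alone and JMJD6 samples with disuccinimidyl glutarate and then formaldehyde, so a difference between the lists of these proteins cannot be told apart from a difference in fixation. Each listed peak was found in all 3 replicates of its antibody, and a peak's position is its only value. The depth at a peak is therefore unknown, and the spread between replicates could not be computed. Intervals are exact (Clopper-Pearson) binomial 95% confidence intervals and cover counting error over genes or peaks only. Positions are 1-based on GRCh37, and of the 36 listed members 30 had a promoter centred within 100 bp of an annotated start site, with a largest offset of 426 bp at MRPL57.

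Mitochondria translate a few respiratory chain subunits from their own DNA on ribosomes of their own. The RNA of these ribosomes is mitochondrial, but all of their proteins are encoded in the nucleus, made in the cytosol and imported. Some are descended from bacterial ribosomal proteins, and others were added after the endosymbiont was acquired. Myc proteins bind the E-box CACGTG with their partner MAX and are known for raising the expression of ribosome biogenesis and mitochondrial genes.

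The sequences under the N-Myc peaks show which of these promoters held an E-box within the peak. Of the 36 listed members, 9 had an E-box in the peak, with 1 site each. These 9 sites are printed on the strand of the gene, 5′ to 3′ on GRCh37, with the E-box in capitals and 10 bases on either side.

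MRPL27 (chr17:48450332-48450337, minus strand, intron): tgtcgctggtCACGTGacacatcctg
MRPL3 (chr3:131221744-131221749, minus strand, coding exon): ctactgcgtcCACGTGgcggtggcgt
MRPL45 (chr17:36453001-36453006, plus strand, UTR): ctcccgcgagCACGTGcgcgtcctcg
MRPL57 (chr13:21750007-21750012, plus strand, upstream): aactgtggacCACGTGagtgagaaaa
MRPL58 (chr17:73008135-73008140, plus strand, upstream): ccagtacacaCACGTGctcagcgggg
MRPS18B (chr6:30585817-30585822, plus strand, intron): gagaccttccCACGTGtgtcttagct
MRPS18C (chr4:84377032-84377037, plus strand, upstream): tcataagcctCACGTGacctgccgcg
MRPS27 (chr5:71616475-71616480, minus strand, intron): ccactgcaccCACGTGcaactagagg
MRPS33 (chr7:140714575-140714580, minus strand, intron): tcgggcggttCACGTGcatcacacaa

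The bases next to the E-box varied. The palindrome CCACGTGG occurred once, at MRPL3, which encodes a protein near the peptidyl transferase centre. TCACGTGA occurred at MRPL27 and MRPS18C, and GCACGTGC at MRPL45. The other 5 sites had different flanks on the left and the right. There were 1457 E-boxes in all N-Myc peaks at listed promoters of autosomal protein-coding genes. Of these, 17.8% were CCACGTGG, 6.31% TCACGTGA and 5.63% GCACGTGC, and the sites of members were not tested against these shares.

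The same hexamer also stood at members that were not listed. Those with the farthest and the nearest N-Myc peak among the unlisted members with an E-box within 500 bp of the start site are printed for comparison. Both sites lay upstream of the start.

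MRPS9 (chr2:105654216-105654221, plus strand): gctaaagcgcCACGTGgatgtgagtg
MRPL22 (chr5:154320457-154320462, plus strand): ttcggaagccCACGTGctttcggcct

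MRPS9 held the palindrome CCACGTGG 309 bp upstream of its start site, and its nearest N-Myc peak was 292 kb away. MRPL22 held its E-box 174 bp upstream, and its nearest N-Myc peak was 3.06 kb away.

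Most bound promoters in the group had no E-box under the peak, and of all N-Myc promoter peaks only 36.9% held one. To show what such a peak covered, the stretch from the upstream end of the peak to the base before the start site is given for the 4 narrowest peaks that covered a start site, on GRCh37 and the plus strand, which is the strand of each gene. Capitals mark, on either strand, the noncanonical E-box (CACGCG), the motif of ETS family factors (CCGGAAG), the core of the NRF1 site (TGCGCA) and the YY1 motif (AAGATGGC).

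MRPL44 (chr2:224822037-224822179): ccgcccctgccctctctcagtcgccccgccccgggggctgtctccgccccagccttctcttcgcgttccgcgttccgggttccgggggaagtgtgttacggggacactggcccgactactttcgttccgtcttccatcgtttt
MRPL12 (chr17:79670250-79670396): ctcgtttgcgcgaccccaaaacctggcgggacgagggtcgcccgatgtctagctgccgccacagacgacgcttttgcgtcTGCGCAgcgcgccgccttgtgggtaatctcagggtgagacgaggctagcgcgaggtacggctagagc
MRPL52 (chr14:23298893-23299095): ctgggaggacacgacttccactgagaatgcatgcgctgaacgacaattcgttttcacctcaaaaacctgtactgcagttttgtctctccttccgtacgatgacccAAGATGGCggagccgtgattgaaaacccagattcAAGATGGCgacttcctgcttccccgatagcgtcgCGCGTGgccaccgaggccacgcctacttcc
MRPS17 (chr7:56019440-56019569): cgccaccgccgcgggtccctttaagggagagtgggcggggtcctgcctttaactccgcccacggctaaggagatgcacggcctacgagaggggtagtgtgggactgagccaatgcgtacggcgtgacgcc

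MRPL12, whose bacterial counterpart recruits translation factors, had 1 core of the site of NRF1, the nuclear respiratory factor. MRPL52 had 2 YY1 motifs and 1 noncanonical E-box, the latter on the opposite strand. The stretches of MRPL44 and MRPS17 held none of the 4 motifs. The whole peaks, which reach past these stretches, also held 1 CCGGAAG at MRPL52 and 1 CACGCG at MRPS17.

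N-Myc was bound at the promoters of 36 of 78 mitochondrial ribosomal protein genes, or 46.2% (95% CI 34.8 to 57.8%). Of all autosomal protein-coding genes 3527, or 18.9%, were in the same list. The 78 genes are not replicates of a condition, and their share was not tested against that of all genes. All 36 held a common N-Myc peak on the listed promoter. Counting any N-Myc peak within 1 kb of any annotated start site of the gene gave 38 members, beside 20.4% of all genes.

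The listed members came from both subunits. N-Myc was at 22 of 49 MRPL genes (44.9%) and at 14 of 29 MRPS genes (48.3%), which did not differ detectably (odds ratio 0.873, 95% CI 0.315 to 2.43, exact p = 0.817, adjusted p = 1). The test was Fisher's exact test, two-sided. This and the next 3 comparisons between kinds of member form a family of 4, and adjusted p-values are by Benjamini-Hochberg over it. The interval of the odds ratio runs from below 1 to above 2, so a difference of moderate size in either direction could not be detected with 78 genes.

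Among large subunit proteins with a bacterial homologue, 11 of 30 were listed. They included MRPL2 and MRPL3, whose bacterial counterparts support the peptidyl transferase centre, MRPL1 and MRPL12, whose counterparts belong to the stalks, MRPL27 near the ends of the bound tRNAs, and MRPL24 near the exit of the nascent chain. The others were MRPL13, MRPL17, MRPL30, MRPL32 and MRPL47. MRPL11, which forms the base of the stalk with ribosomal RNA, was not listed, and its nearest N-Myc peak was 41.5 kb away.

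Of the large subunit proteins classed as mitochondria-specific, meaning without a homologous bacterial ribosomal protein, 11 of 19 were listed. MRPL45, which lies at the tunnel exit and helps hold the ribosome at the inner membrane, was one. MRPL58, a ribosomal protein with peptidyl-tRNA hydrolase activity that is listed under the older symbol ICT1 in the enhancer list, was another. MRPL39, MRPL42, MRPL43, MRPL44, MRPL48, MRPL51, MRPL52, MRPL54 and MRPL57 made up the rest.

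The small subunit had 9 of 18 proteins with a bacterial homologue and 5 of 11 without one in the N-Myc list. The former were MRPS7, MRPS14, MRPS15, MRPS16, MRPS17, MRPS18B, MRPS18C, MRPS21 and MRPS28. The latter were MRPS23, MRPS27, a pentatricopeptide repeat protein, MRPS30, MRPS33 and MRPS34. MRPS2 and MRPS12, the latter part of the decoding site, were not listed. The MRPS18 genes encode related proteins with a common bacterial ancestor, and MRPS18B and MRPS18C were listed while MRPS18A was not. MRPS18A and MRPS30 sit in the large subunit of the assembled ribosome despite their symbols.

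Over both subunits, 20 of 48 members with a bacterial homologue (41.7%) and 16 of 30 mitochondria-specific members (53.3%) were listed. The difference did not pass the threshold (odds ratio 0.625, 95% CI 0.226 to 1.73, Fisher's exact test, p = 0.357, adjusted p = 0.713).

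**Figure D1:**
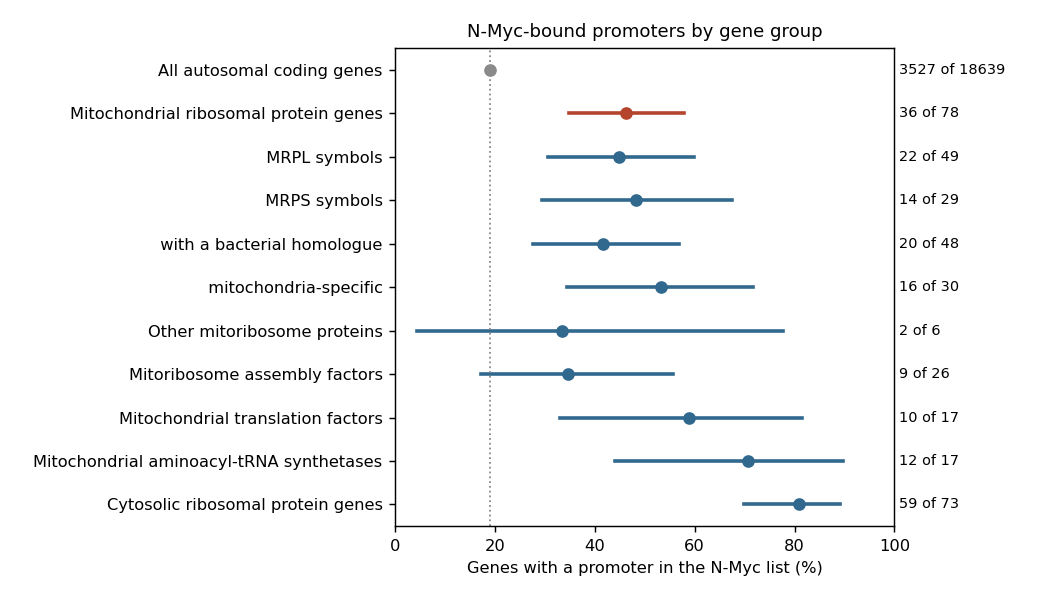
Share of genes (%, x axis) whose promoter was in the N-Myc list, for each gene group on the y axis, with counts at the right. Points are shares, lines are exact binomial 95% confidence intervals, and the dotted line is the share over all autosomal protein-coding genes (18.9%). The mitochondrial ribosomal protein genes (46.2%) lie between all genes and the cytosolic ribosomal protein genes (80.8%).

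Other groups of the translation machinery gave a scale for this share. Of 73 cytosolic ribosomal protein genes 59 were in the N-Myc list, or 80.8% (95% CI 69.9 to 89.1%). Of 66 other genes of mitochondrial translation 33 were listed, or 50% (95% CI 37.4 to 62.6%). Within these, the mitochondrial aminoacyl-tRNA synthetases, which charge the tRNAs, had 12 of 17 and the translation factors 10 of 17. The assembly factors of the ribosome had 9 of 26, and mitoribosome proteins with other symbols, counted together with OXA1L, had 2 of 6. These shares are given as counts and were not tested against each other.

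JMJD6 was listed at none of the 78 promoters, and no promoter was listed for both proteins. A count of 0 of 78 allows a share of up to 3.85%, and the exact interval ends at 4.62%. JMJD6 was at 0.676% of all gene promoters and both proteins were at 0.322%, so shares like those of all genes could not be told from 0 with 78 genes. Counting any JMJD6 peak within 1 kb of an annotated start site also gave 0 members, beside 0.756% of all genes. The JMJD6 list held 561 common peaks and the N-Myc list 10172.

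Most members had no JMJD6 peak within 100 kb. The distance from a member's start site to the nearest JMJD6 peak had a median of 1059 kb, with 2391 kb over all genes, and 8 members (10.3%) had one within 100 kb, beside 5.59% of all genes. The nearest was 8.82 kb from the start of MRPL55, a gene singled out after its value was seen. Among the members bound by N-Myc the nearest was 26.01 kb away, at MRPL24. PTCD3, which encodes a small subunit protein with a non-MRPS symbol, was the only one of the 66 other mitochondrial translation genes in the JMJD6 promoter list. It lay under a peak of 1127 bp (chromosome 2, 86332498 to 86333624) that was shared with N-Myc.

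**Figure D2:**
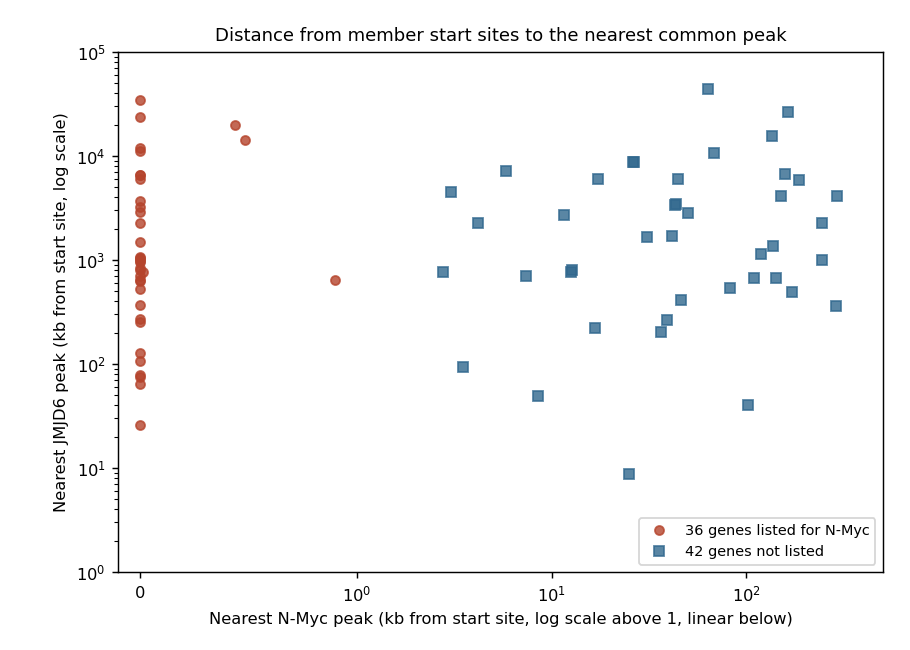
Distance in kb from the start site of each member to the nearest N-Myc peak (x axis, linear below 1 kb and logarithmic above) and the nearest JMJD6 peak (y axis, logarithmic), with circles for the 36 genes in the N-Myc promoter list and squares for the 42 others. The listed genes lie within 0.902 kb of an N-Myc peak, the others at 2.78 kb or more, and in both sets the JMJD6 peaks lie 8.82 kb or more away.

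N-Myc peaks at these promoters were centred close to the start site. The 36 listed members had 38 promoter rows, because MRPL43 and MRPS33 had 2 each, and 38 peaks, because MRPL51 and MRPL54 had 2 each. The distance from the peak centre to the nearest annotated start site had a median of 68 bp, beside 160 bp for all 3277 N-Myc peaks on promoters of autosomal protein-coding genes. Of the 38 peaks 31 (81.6%) were centred within 250 bp of a start site, beside 62.4%, and 32 (84.2%) covered one, beside 60.2%. Taking 1 peak per gene, the centre was upstream of the start in 25 and downstream in 11.

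In 4 genes the peak missed the annotated start site. At MRPL57 it was centred 682 bp upstream, and there the listed promoter and the annotated start differed by 426 bp. At MRPL58 it was centred 370 bp upstream and ended 14 bp before the start. At MRPS34 the centre was 773 bp downstream in a coding exon, and the peak (chromosome 16, 1822074 to 1822651) also overlapped the promoters of EME2 and NME3. At MRPS30 it was centred 1076 bp downstream in an intron (chromosome 5, 44809951 to 44810299) and overlapped the listed promoter by 76 bp. MRPS30 was therefore listed on the edge of a peak that lay mostly outside its promoter.

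**Figure D3:**
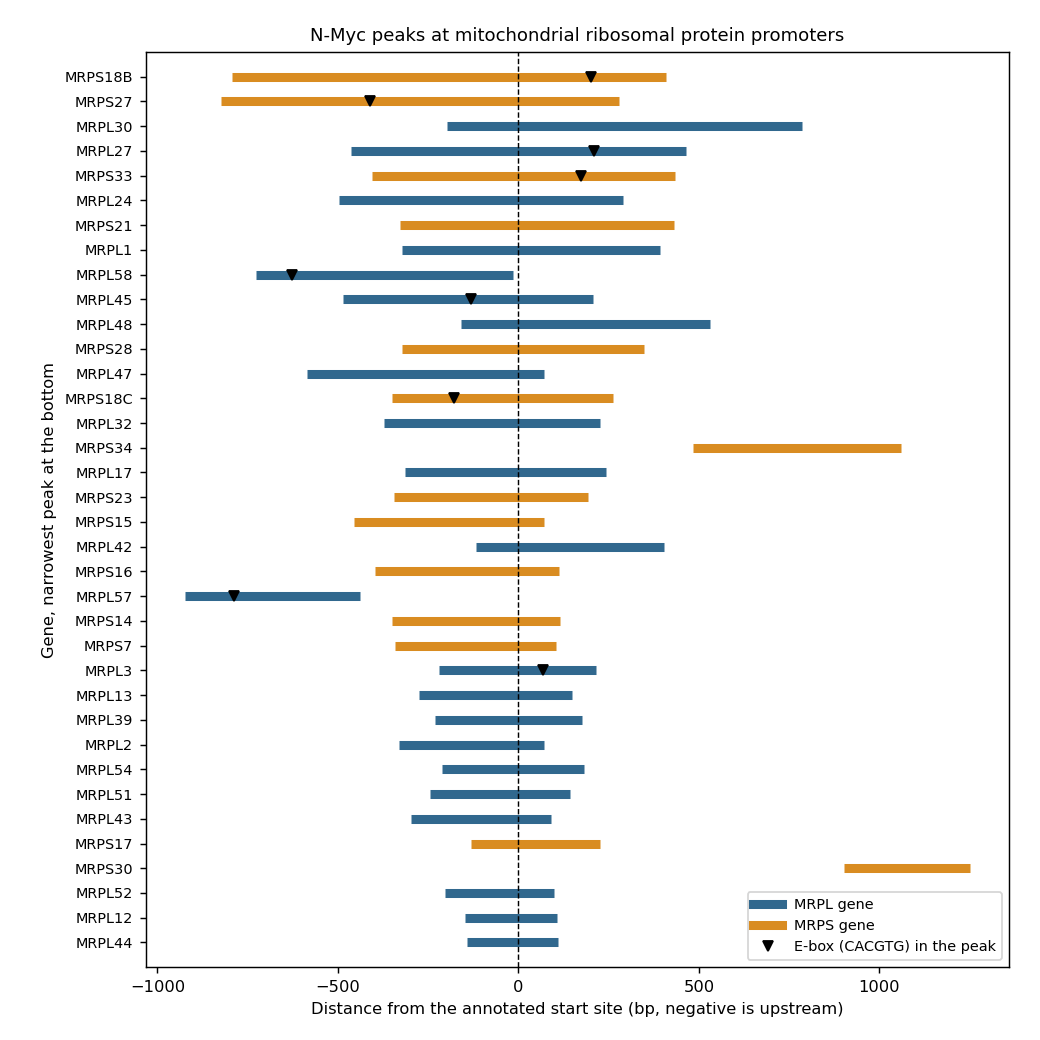
Extent of the N-Myc peak at each of the 36 listed members, in bp from the annotated start site (dashed line, negative is upstream), ordered by width, with MRPL genes in blue, MRPS genes in orange and E-boxes as triangles. For MRPL51 and MRPL54 the peak nearer the start is drawn. Of the 36 peaks 32 cover the start site, and 9 hold an E-box.

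The peaks ranged in width from 226 to 1203 bp with a median of 524.5 bp, beside a median of 449 bp for all promoter peaks. The quartiles were 402 and 693 bp in members and 343 and 612 bp in all. The narrowest of all was the second peak of MRPL54, centred 898 bp upstream of its start site, and the second peak of MRPL51 was centred 893 bp upstream and was 447 bp wide. Width is not signal, and the lists hold no height.

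The widest peak was at MRPS18B (1203 bp; chromosome 6, 30584824 to 30586026), which reached over the start of PPP1R10 on the other strand. MRPS27 had the next, 1104 bp (chromosome 5, 71615787 to 71616890), which also overlapped the promoter of PTCD2. Both held 1 E-box. They were followed by MRPL30 (985 bp), MRPL27 (929 bp) and MRPS33 (839 bp), then MRPL24 (789 bp), MRPS21 (760 bp), MRPL1 (714 bp), MRPL58 (713 bp) and MRPL45 (694 bp). Of these 10 peaks 6 held an E-box, and the median width over all listed members was 713 bp with an E-box and 510 bp without. A longer peak has more positions at which a motif can occur.

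At the other end were MRPL44 (253 bp; chromosome 2, 224822037 to 224822289), MRPL12 (255 bp; chromosome 17, 79670250 to 79670504) and MRPL52 (303 bp; chromosome 14, 23298893 to 23299195). MRPS30 had 349 bp and MRPS17 357 bp (chromosome 7, 56019440 to 56019796). All of these but MRPS30 covered the start site, and none held an E-box.

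Members' peaks held fewer E-boxes per length than all promoter peaks, and most lay away from the peak centre. Of the 38 peaks 9 held CACGTG, or 23.7% (95% CI 11.4 to 40.2%), beside 1209 of 3277 promoter peaks, or 36.9%, which the interval includes. No member peak held 2 or more, beside 6.56% of all. Per 10 kb of peak sequence there were 4.16 E-boxes in members and 8.79 in all promoter peaks. Within 100 bp of the peak centre the share was 2 of 38, or 5.26% (95% CI 0.644 to 17.7%), beside 23.2%, which lies above the interval.

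The E-box nearest to a peak centre was that of MRPL45, 10 bp away and 131 bp upstream of the start site. Part of the listed peak of its pseudogene MRPL45P2 repeats sequence found within 5 kb of MRPL45 (230 of 597 stretches of 50 bases). This count does not show whether the stretches lie in the peak of MRPL45, so its listing is uncertain. MRPL3 followed at 71.5 bp from the centre, with the E-box 68 bp downstream of the start in coding sequence. MRPL57 (106 bp), MRPS18C (133 bp), MRPS27 (139 bp), MRPS33 (160.5 bp), MRPL27 (209.5 bp), MRPL58 (257.5 bp) and MRPS18B (394.5 bp) came after. The median over the 9 was 139 bp. Of the 9 E-boxes 5 lay upstream of the start site and 4 downstream.

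Within the group, listing did not differ detectably with an E-box near the start site. Of 15 members with CACGTG within 500 bp of the start 7 were listed (46.7%), and of the 63 without it 29 were (46.03%). The odds ratio was 1.03 (95% CI 0.279 to 3.69, Fisher's exact test, p = 1, adjusted p = 1). Over all genes 33.3% of those with an E-box were listed and 15.7% of those without. The interval within members includes the odds ratio of all genes, so the members could not be shown to differ from them. The unlisted members with an E-box were MRPL15, which had 2, MRPL22, MRPL36, MRPL37, MRPL49, MRPS9, MRPS18A and MRPS36.

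Motifs of other factors were counted in the same peaks, and over the whole peak the interval of the members lay above the share of all promoter peaks for ETS and YY1. CCGGAAG, the motif of ETS family factors, was in 17 of 38 member peaks (44.7%, 95% CI 28.6 to 61.7%), beside 21.9% of all promoter peaks. AAGATGGC (YY1) was in 9 of 38 (23.7%, 95% CI 11.4 to 40.2%), beside 6.47%. CACGCG was in 13 (34.2%), beside 29.4%, and TGCGCA (NRF1 core) in 8 (21.1%), beside 16.5%. Within 100 bp of the peak centre, which removes the difference in width, CCGGAAG was in 10 member peaks (26.3%, 95% CI 13.4 to 43.1%), beside 11.9% of all promoter peaks. AAGATGGC was there in 2 (5.26%, 95% CI 0.644 to 17.7%), beside 3.11%, which the interval includes. CACGCG was in 26.3%, beside 16.7%, and TGCGCA in 15.8%, beside 8.51%. These motifs were searched after the E-box values had been seen and were not tested.

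Around the start site, 500 bp to each side, CCGGAAG was at 50% of listed members (95% CI 32.9 to 67.1%), beside 34.8% of all listed genes, and at 47.6% of unlisted members, beside 19.5% of all unlisted genes. AAGATGGC was at 27.8% of listed and 35.7% of unlisted members, beside 11% and 6.36%. CACGTG was at 19.4% and 19.0%, beside 32.0% and 15.0%. TGCGCA was at 36.1% and 21.4%, beside 27.9% and 18.1%. CACGCG was at 41.7% of listed members, below the 44.7% of all listed genes, and at 47.6% of unlisted members, beside 29.4%.

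Of the 27 listed members without an E-box in the peak, 20 held at least 1 of the other 4 motifs there. CCGGAAG was in 12 of them, CACGCG in 7, AAGATGGC in 6 and TGCGCA in 4. Of all promoter peaks, with or without an E-box, 21.9%, 29.4%, 6.47% and 16.5% held these motifs. The share of all promoter peaks without an E-box that held any of them was not computed. Whether these counts are particular to members is therefore unknown. MRPL54, with 3 copies, had the most CCGGAAG. None of the 5 motifs was found in 7 peaks, those of MRPL1, MRPL13, MRPL39, MRPL44, MRPS14, MRPS28 and MRPS30, which were named after their values were seen.

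**Figure D4:**
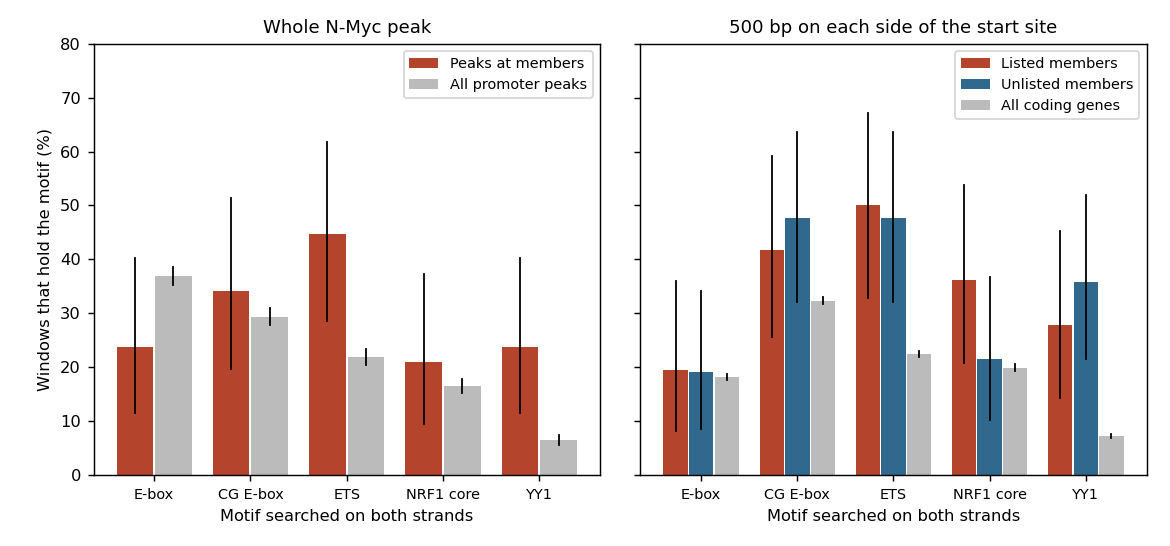
Share of windows (%, y axis from 0) that hold each of 5 motifs (x axis; CG E-box is CACGCG), for whole N-Myc peaks at the left and for 500 bp on each side of the start site at the right, with exact binomial 95% confidence intervals as lines. The ETS motif is in 44.7% of member peaks and 21.9% of all promoter peaks, and the E-box in 23.7% and 36.9%.

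Many of these genes start next to another gene on the opposite strand. A start site of a coding gene or long non-coding RNA lay within 1 kb upstream on the other strand at 30 of 78 members (38.5%), beside 19.1% of all genes. Of the 30, 17 were listed (56.7%), compared with 19 of 48 other members (39.6%). The difference did not pass the threshold (odds ratio 1.996, 95% CI 0.718 to 5.59, Fisher's exact test, p = 0.166, adjusted p = 0.665). Over all genes the shares were 33.6% and 15.5%.

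The partner was a coding gene at 26 members (33.3%), beside 9.52% of all genes. It was so at 14 listed members, and the partner's promoter was listed in every case, under the same peak as the member's. These pairs joined MRPL2 with KLC4, MRPL13 with MTBP, MRPL27 with EME1, MRPL30 with MITD1, MRPL32 with PSMA2, a proteasome subunit, and MRPL43 with TWNK, the mitochondrial DNA helicase. They also joined MRPL47 with NDUFB5, a subunit of respiratory complex I, MRPL51 with NCAPD2, MRPL54 with APBA3 and MRPL57 with SKA3. In the small subunit they joined MRPS7 with GGA3, MRPS18B with PPP1R10, MRPS18C with HELQ and MRPS27 with PTCD2. A peak on such a pair cannot be assigned to one of its genes from the lists. The promoters of such a pair overlap, since each reaches 1 kb to either side of its start. Listing of both or neither was therefore largely set by the definition, and its share over all gene pairs was not computed. Of the 12 unlisted members with a coding partner, none had a listed partner. MRPL46 and MRPS11, which start 320 bp apart, were one such pair, and MRPS12 with SARS2, the mitochondrial seryl-tRNA synthetase, was another, at 181 bp.

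The 42 unlisted members were not next to a common N-Myc peak. Their nearest peak was 2.78 to 292 kb from the start site, with a median of 44.1 kb, beside 84.8 kb for all unlisted genes. It lay within 5 kb at MRPS10 (2.78 kb), MRPL22 (3.06 kb), MRPL35 (3.50 kb) and MRPL49 (4.22 kb), and within 10 kb also at MRPL19 (5.84 kb), MRPS18A (7.38 kb) and MRPL38 (8.51 kb).

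A further 16 members had their nearest peak between 10 and 50 kb away. In the large subunit these were MRPL21 (12.54 kb), MRPL34 (12.8 kb), MRPL41 (16.7 kb), MRPL53 (17.4 kb), MRPL55 (24.95 kb), MRPL46 (26.5 kb), MRPL4 (36.6 kb), MRPL37 (39.1 kb), MRPL11 (41.5 kb), MRPL50 (44.6 kb) and MRPL9 (46.3 kb). In the small subunit they were MRPS22 (11.6 kb), MRPS11 (26.1 kb), MRPS12 (31.0 kb), MRPS6 (43.03 kb) and MRPS5 (43.5 kb). Between 50 and 100 kb lay MRPS36 (50.4 kb), also known as a subunit of the oxoglutarate dehydrogenase complex, MRPL18 (63.4 kb), MRPS35 (68.4 kb) and MRPL40 (82.04 kb).

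The remaining members had no N-Myc peak within 100 kb. They were MRPL20 (102 kb), MRPL10 (109.6 kb), MRPL14 (118.5 kb), MRPL28 (136 kb), MRPS2 (137 kb), MRPL33 (143 kb), MRPS24 (149.6 kb), MRPL36 (158 kb), MRPS26 (163 kb), MRPL15 (172 kb), MRPS25 (186 kb), MRPL23 (243 kb), MRPL16 (244 kb), MRPS31 (289 kb) and MRPS9 (292 kb). No unlisted member thus lay just outside the 1 kb limit of a promoter by its main start site.

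Alternative start sites changed this for a pair of genes. MRPL34 had an N-Myc peak (458 bp; chromosome 19, 17403469 to 17403926) at an annotated start 13.2 kb from its main one. MRPS22 had one (428 bp; chromosome 3, 139000441 to 139000868) at a start 62.3 kb from its main one. These were the 2 unlisted members with a peak within 1 kb of any annotated start.

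N-Myc-bound typical enhancers, assigned by the authors to the nearest genes, were given to 39 of 78 members (50%, 95% CI 38.5 to 61.5%), beside 33.7% of all genes. Most of these regions were not separate from the promoters. Of 51 assignments 27 overlapped the member's own listed promoter and 30 lay within 5 kb of the start site. An enhancer was assigned to 30 of the 36 listed members (83.3%, beside 72.9% of listed genes) and to 9 of the 42 unlisted ones (21.4%, beside 24.5% of unlisted genes). Regions that overlapped no listed promoter numbered 11 and were assigned to 7 members. Overlaps with promoters and distances to start sites were not counted over all genes, so whether they are particular to members is unknown. MRPS30 had the most assignments, 5, of which 4 lay 166 to 886 kb from its start site. No JMJD6-bound typical enhancer was assigned to a member, beside 0.971% of all genes.

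N-Myc-bound super-enhancers were assigned to 3 members, beside 1.41% of all genes. The region of MRPL27 (chromosome 17, 48441748 to 48454955) held 2 common N-Myc peaks and overlapped its listed promoter. That of MRPS27 (chromosome 5, 71567119 to 71617221) held 4 and overlapped its listed promoter too. The region of MRPS18A (chromosome 6, 43654557 to 43685575) held 3 peaks. It was centred 14.5 kb upstream of the start but also covered the start site, and the promoter of MRPS18A was not listed. JMJD6-bound super-enhancers were assigned to 0 members, beside 0.0805% of all genes.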

How the data were processed

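Per the labels and the study's methods, alignment by the authors used BWA, with SAMtools and bedtools for file handling. Peaks were called by MACS2 2.1.1.20160309 against input (q-value below 0.05). The deposited lists hold positions of peaks found in all 3 replicates, and of promoters (1 kb to each side of a RefSeq start), enhancers and super-enhancers (ROSE, from H3K27ac peaks, stitched within 12.5 kb) that the authors selected for overlap with peaks. Not every such region holds a common peak. Nearest genes came from GREAT. No list has a height, score, read count or column per sample, so the depth at a peak is unknown, beyond a minimum of reads per sample that the study states.

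Groups followed the antibody in the labels. Symbols in the 12 lists were matched, older symbols included, to GENCODE 44 lifted to GRCh37. Start sites were those of the canonical transcript, and distances in the summaries of peaks were to the nearest annotated start. A peak counted from an overlap of 1 bp. Shares have exact intervals. Members were split in 4 ways and compared by two-sided Fisher's exact tests, whose p-values describe genes within 1 set of lists and carry no replicate error. Motifs for the canonical E-box (CACGTG), the noncanonical E-box (CACGCG), ETS (CCGGAAG), NRF1 (TGCGCA) and YY1 (AAGATGGC) were counted on both strands of the reference. A palindromic site counted once, and sites of different motifs may overlap by some bases.

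Values were given for members in JMJD6 or super-enhancer lists, the 10 widest and 5 narrowest peaks, the E-boxes nearest to peak centres, all unlisted members, and MRPL3, MRPL11, MRPL12, MRPL58, MRPS2, MRPS12 and MRPS18A regardless of value. Members, lists and tests were chosen with earlier results of these data known. Software comprised SciPy 1.17.1, pysam 0.24.0, statsmodels 0.14.6 and numpy 2.4.6 under Python 3.11.15, with matplotlib 3.10.9 for plots, and the counting and tests were tested on simulated data.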

Additional observations from a re-analysis of the deposited data

How the results depend on the processing

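No paired analysis was possible because the lists are pooled over replicates and have no column per sample, and for the same reason no replicate could be left out. Of 21 alternatives 15 kept the direction and the side of the threshold, or stayed within 1.5 times the reported count or within the error of the reported value. The number of members bound by N-Myc at the promoter ranged from 27, with only peaks wider than the median of the list (418 bp), to 38, with any peak within 1 kb of any annotated start site. A value moved under 3 alternatives. Leaving out enhancers that overlap a listed promoter lowered the members with an N-Myc-bound typical enhancer from 39 to 7. That alternative was not computed over all genes. Restricting the E-box search to 100 bp on either side of the peak centre lowered the share of member peaks from 23.7% to 5.26%, and counting CACGTG or CACGCG raised it to 47.4%, beside 57.1% of all promoter peaks. The direction turned under 3, all for the odds ratio of listing with against without an E-box, which was 1.03 as reported, 0.925 with the E-box within 200 bp, 0.982 within 1000 bp and 0.923 for CACGTG or CACGCG, all close to 1. The 4 comparisons among members stayed above the threshold under every alternative tried for them, with adjusted p-values (Fisher's exact test) from 0.665 to 1. Width stood in for a stricter peak threshold, since the lists hold no score.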

Other observations

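Pseudogenes of the group also appeared among the N-Myc-bound promoters. MRPL45P2 was listed with a peak of 646 bp (chromosome 17, 45569669 to 45570314). Of the 597 stretches of 50 bases in that peak 230 (38.5%) also occur within 5 kb of MRPL45, which was itself listed. The listing of both copies is uncertain, since identical reads cannot be told apart, although the count does not show whether these stretches lie in the peak of MRPL45. MRPS31P5 was listed with a peak of 616 bp (chromosome 13, 52768302 to 52768917). None of its 567 stretches occurs within 5 kb of MRPS31, which was not listed.

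The share of members listed is given for the chromosomes with the most members and for those where all or none were listed and more than 1 member lay. On chromosome 17, 6 of 8 members were listed, beside 23.5% of all genes there. On chromosome 2 it was 2 of 8 members, beside 19.7%, and on chromosome 1 it was 4 of 8, beside 18.8%. Chromosome 11 had 2 of 7, beside 17.3%. Chromosomes 4 and 10 had 2 of 2 each, beside 17.4% and 15.4% of all genes. Chromosomes 9 and 15 had 0 of 3 and 0 of 2, beside 17.3% and 18.0%. The all-or-none chromosomes were picked by their outcome and hold few members. The study describes a gain of part of the long arm of chromosome 17 in these cells. Copy number was not measured here, and these counts were not tested.

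The enhancer listed as N-Myc-bound and assigned to MRPL36 (chromosome 5, 1800162 to 1802131) held 0 common N-Myc peaks. GC content within 500 bp of the start site had a median of 55.4% in listed and 58.6% in unlisted members, beside 61.5% in all genes.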
